A study of Mus musculus with 5 samples.

Results

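The serpins of mouse liver tumours were taken as every gene of the deposited table whose symbol begins with Serpin, a clade letter from a to i and a number, leaving out Serpina6. This gave 62 genes in 9 clades, of 22287 genes in the table. Their level was measured by RNA sequencing as FPKM, which counts fragments relative to gene length and to the size of the library, and 25 of the 62 had a mean of at least 1 FPKM over the 5 libraries, the level from which a gene was tested. Tumours came from C57BL/6 mice given DEN, a liver carcinogen, together with CCl4, a liver toxicant, for 5 months, in both groups alike. The control group was wild type (WT, 2 libraries) and the other group carried the genotype lnc-CTHCC-/- (KO, 3 libraries), the loss of a long non-coding RNA. The sources used here do not give how the allele was made, the sex and age of the mice or whether each library came from its own animal, so p-values measure only the spread between these libraries. The lnc-CTHCC transcript was not analysed here, and the genotypes are used as labelled.

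Serpins are a family of proteins that share one fold with an exposed reactive centre loop. An inhibitory serpin offers this loop to a protease as bait, and on cleavage the loop snaps into the body of the serpin and traps the protease in a covalent complex, so each molecule works once. Hepatocytes secrete most of the serpins of blood plasma, which restrain elastase, clotting factors, plasmin and complement, while clade B serpins stay inside cells and several other serpins carry hormones or fold collagen and inhibit no protease.

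The alpha-1 antitrypsin genes dominate the family in this tissue, and 5 near-identical copies of them, Serpina1a to Serpina1e, lie side by side on chromosome 12. Their coding sequences are 1242 bases long in GENCODE vM21 (GRCm38, the assembly also called mm10), and 86 of these bases (6.9%) differ among the 5. The 60-base stretch in which they differ most, with 18 differing bases where the median over all 60-base stretches is 4, codes for part of the reactive centre loop. It is shown, coding strand, because the differing bases are densest there, although most of the 86 lie outside it. Differing bases are in capitals.

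Serpina1a: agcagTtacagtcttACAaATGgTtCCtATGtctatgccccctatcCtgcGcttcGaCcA
Serpina1b: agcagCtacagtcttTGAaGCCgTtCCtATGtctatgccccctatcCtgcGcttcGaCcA
Serpina1c: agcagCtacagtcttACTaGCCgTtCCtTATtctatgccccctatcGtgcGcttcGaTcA
Serpina1d: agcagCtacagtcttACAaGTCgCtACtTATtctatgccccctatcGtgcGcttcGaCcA
Serpina1e: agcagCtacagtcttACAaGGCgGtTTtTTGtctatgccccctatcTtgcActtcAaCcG

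In these sequences codon 377, the one just before tctatgccc, reads ATG in Serpina1a and Serpina1b, TAT in Serpina1c and Serpina1d, and TTG in Serpina1e. The Serpina1a stretch lies at chr12:103853757-103853816 and the Serpina1e stretch at chr12:103947100-103947159, both on the minus strand. The likeness of the copies bears on every value given for them below. Over whole coding sequences, pairs of copies were identical at 96.3% to 98.5% of bases. Of all stretches of 50 bases, 74.4% of those in Serpina1a, 74.6% in Serpina1c, 51.1% in Serpina1d, 44.8% in Serpina1b and 39.0% in Serpina1e also occur unchanged in another copy. The annotated span of Serpina1b also encloses Serpina1d on the same strand. The sources used here do not give how fragments that match several copies were assigned, so the split between the copies is uncertain and their sum is the firmer value.

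In the RefSeq promoters of GRCm38.p6, which run from 250 bases before to 50 bases after a gene's start, all 5 hold GTTAAT, a half-site of the hepatocyte factor HNF1. The 80 bases around it are shown, in the direction of transcription and with the half-site in capitals, since they are nearly the same in copies whose levels differ several-fold.

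Serpina1a: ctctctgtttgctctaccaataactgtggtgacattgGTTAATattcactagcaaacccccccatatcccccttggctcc
Serpina1b: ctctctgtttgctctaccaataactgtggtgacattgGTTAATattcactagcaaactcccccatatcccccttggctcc
Serpina1c: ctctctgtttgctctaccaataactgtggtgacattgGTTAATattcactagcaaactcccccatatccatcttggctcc
Serpina1d: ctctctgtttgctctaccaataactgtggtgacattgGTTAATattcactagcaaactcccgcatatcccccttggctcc
Serpina1e: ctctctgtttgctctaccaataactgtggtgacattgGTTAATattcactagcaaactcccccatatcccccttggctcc

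These stretches lie on the minus strand, that of Serpina1b at chr12:103738173-103738252 and that of Serpina1e at chr12:103956933-103957012. Searched on both strands, GTTAAT was found in 8.24% of the 27025 genes of the promoter table and in 6 of the 20 expressed serpins with an entry there, the other one being Serpina7. The core motif of Onecut factors, searched on both strands as ATTGAT or ATCGAT, was found in 9.55% of all genes and in 5 of these 20 serpins, Serpina1b, Serpina1c, Serpina1d, Serpina1e and Serpinf2. The Onecut core was searched because Onecut1, a hepatocyte transcription factor, is the gene that passed the test with the main settings, a call that was lost in 10 of 15 alternatives. It was at 2.20 and 2.39 FPKM in WT against 11.6, 9.57 and 12.04 FPKM in KO tumours. Most of the serpins counted for either motif are Serpina1 copies, whose promoters are alike. They are not independent genes, so these counts cannot be weighed against the shares of all genes. A match of letters is a description of the sequence and says nothing of binding.

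Serpin RNA made up a large share of these tumours' transcripts in both genotypes. The 62 serpins summed to 46372 FPKM in WT 1 and 37763 FPKM in WT 2, and to 42560, 36749 and 39238 FPKM in KO 1, KO 2 and KO 3. Of all FPKM they took 8.39% in WT 1 and 7.12% in WT 2, against 8.09%, 6.83% and 7.39% in KO 1, KO 2 and KO 3. The KO libraries lie within or just below the gap between the WT libraries, which differ from each other by more than the genotypes' means do. The summed FPKM averaged 42068 ± 6087 over the WT libraries (SD, n = 2), against 39516 ± 2915 over the KO libraries (SD, n = 3). Serpina1a to Serpina1e gave 83.9% of this sum over all libraries.

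**Figure D1:**
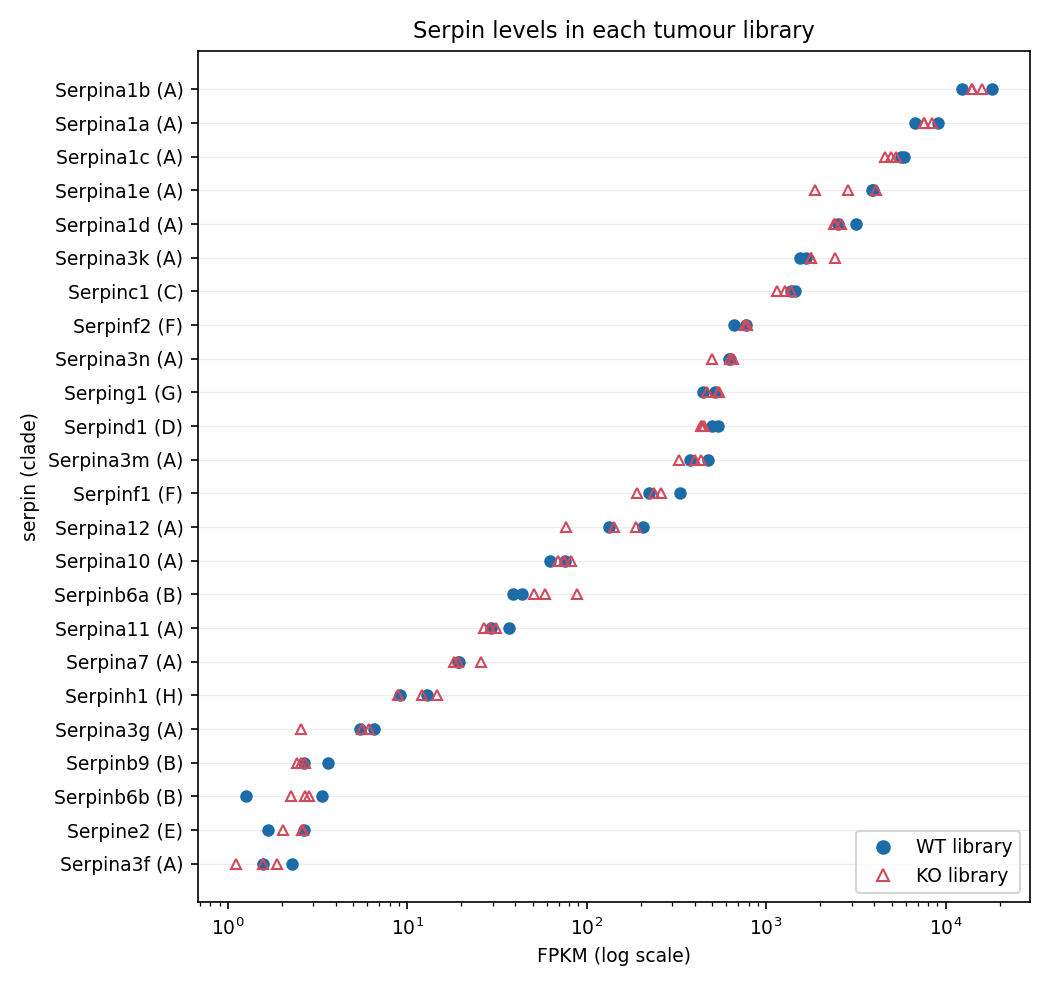
FPKM of 24 expressed serpins in each library, on a log scale, ordered by their mean, with the clade in brackets; filled circles are WT and open triangles KO libraries. Levels run over 4 powers of 10, from Serpina3f (mean 1.68 FPKM) to Serpina1b (mean 14910 FPKM), and for most genes the KO triangles fall among or beside the WT circles.

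No serpin passed the test of KO against WT. Values were compared as log2(FPKM + 1) by limma over all 10132 genes with a mean of at least 1 FPKM, with Benjamini-Hochberg adjustment at 0.05. None of the 25 expressed serpins was called, where 0.00987% of all genes tested were, which is Onecut1 alone, and the limma adjusted p of each of the 25 was 0.999. An unadjusted limma p under 0.05 was seen for 1 serpin, Serpinb6a, and for 3.23% of all genes tested. KO was higher in 10 and lower in 15 serpins, with a median log2 difference of -0.14, where 6220 genes were higher and 3912 lower among all genes tested and their median was 0.05. The lowest KO value exceeded the highest WT value in 2 serpins, Serpinb6a and Serpina3k, and in 9.78% of all genes tested. The highest KO value was under the lowest WT value in 3 serpins, Serpina1c, Serpinc1 and Serpind1, and in 5.29% of all genes tested. The values of Serpina3k and Serpina1c may depend on how fragments were split between similar genes. The genotypes overlapped in the sum of Serpina1a to Serpina1e and in the sum of the Serpina3 genes. In 16 of the 25 serpins the WT libraries differed from each other by more than the genotype means did, against 74.5% of all genes tested. A missed threshold with 2 and 3 libraries does not show that serpin levels are equal.

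**Figure D2:**
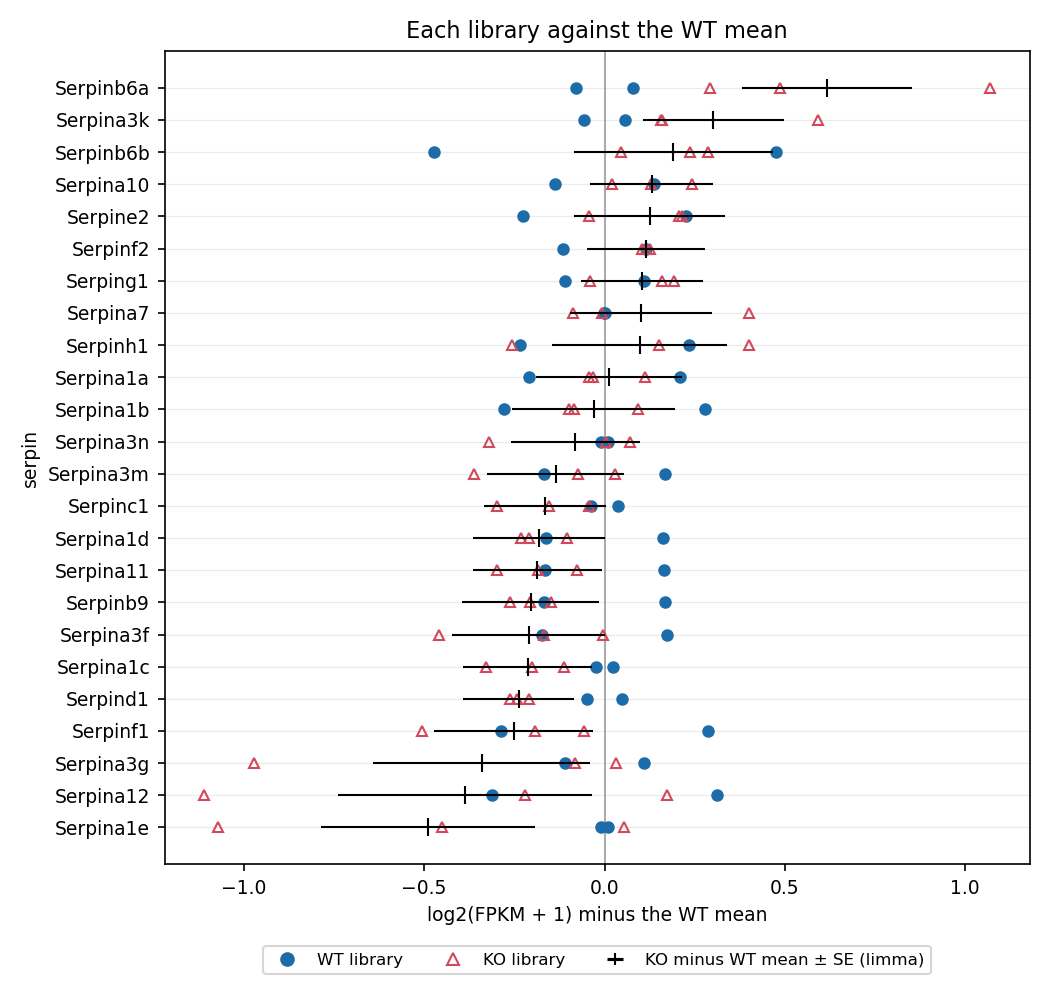
log2(FPKM + 1) of each library minus the WT mean, for 24 expressed serpins ordered by the KO minus WT difference; the black tick and bar give that difference and its standard error from limma. Serpinb6a stands at the top (0.62) and Serpina1e at the bottom (-0.49).

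Among the secreted protease inhibitors, alpha-1 antitrypsin guards tissue against neutrophil elastase. The 5 copies together were at 40114 and 31158 FPKM in WT against 36225, 30447 and 32177 FPKM in KO tumours, and KO 2 lies a little below and KO 1 and KO 3 between the WT values. Alb, the gene of serum albumin, was likewise highest in WT 1, at 94258 FPKM, and was lowest in WT 2, at 74739 FPKM.

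**Figure D3:**
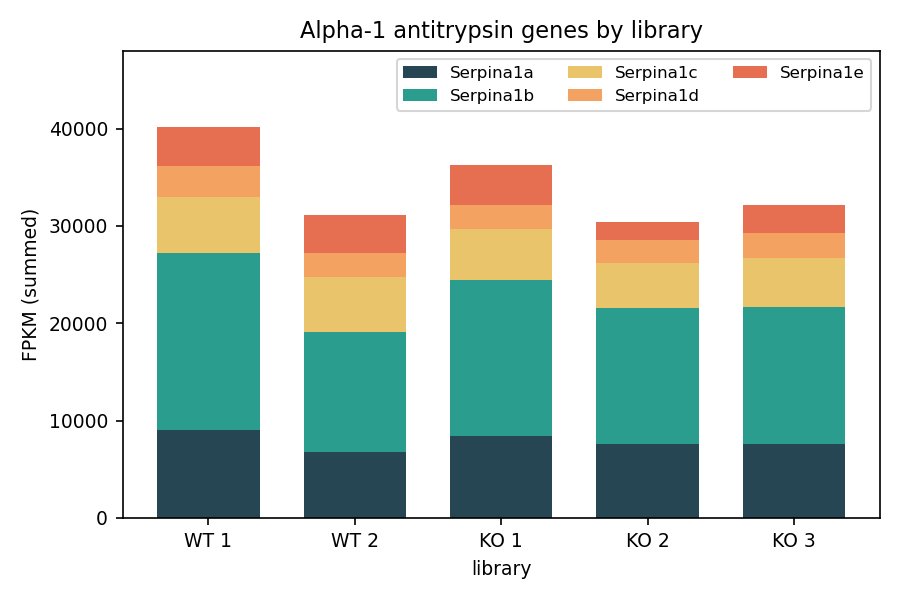
Stacked FPKM of Serpina1a to Serpina1e in each library. WT 1 has the tallest bar (40114 FPKM) and KO 2 the shortest (30447 FPKM), and Serpina1b is the largest segment in each bar.

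Serpina1b, the most abundant copy, was at 18141 and 12350 FPKM in WT against 15969, 13974 and 14113 FPKM in KO tumours, and its KO values all fall between the WT values. Its log2 difference was -0.03 (SE 0.23). Serpina1a showed the same picture, at 9024 and 6743 FPKM in WT against 8424, 7630 and 7572 FPKM in KO tumours, and with a difference of 0.01 (log2) that turns to -0.05 after median-ratio rescaling. As a share of the 5 copies, which does not depend on how a library is scaled, Serpina1b took 45.2% and 39.6% in WT and 44.1%, 45.9% and 43.9% in KO tumours.

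Serpina1e, the copy with TTG at codon 377, varied most. It was at 3960 and 3900 FPKM in WT against 4080, 1871 and 2875 FPKM in KO tumours, so that KO 1 lies above both WT libraries and KO 2 and KO 3 below. Its log2 difference was -0.49 (SE 0.30), the lowest of the 25 serpins, and ran from -0.76 without KO 1 to -0.20 without KO 2. Of the 5-copy sum it took 9.87% and 12.5% in WT and 11.3%, 6.14% and 8.93% in KO tumours. Serpina1c was lower in all KO libraries, at 5834 and 5651 FPKM in WT against 5316, 4576 and 4995 FPKM in KO tumours, and its log2 difference was -0.21 (SE 0.18). Serpina1d was at 3154 and 2515 FPKM in WT against 2436, 2397 and 2622 FPKM in KO tumours, where KO 3 overlaps the WT values.

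The Serpina3 genes are the mouse relatives of human alpha-1 antichymotrypsin, with 10 members in the table, 5 of them expressed. Serpina3k, a plasma serpin that binds tissue kallikrein, was at 1536 and 1664 FPKM in WT against 1785, 1781 and 2412 FPKM in KO tumours. All 3 KO libraries were higher, KO 3 most of all, with a log2 difference of 0.30 (SE 0.20) and 0.16 without KO 3. Serpina3m, whose annotated span starts at the same base as that of Serpina3k and whose coding sequence is 91.7% identical to it, was at 376 and 475 FPKM in WT against 431, 328 and 402 FPKM in KO tumours. Its fragments and those of Serpina3k may have been split between the pair in a way that is not known. The Serpina3 genes together were at 2541.5 and 2777.1 FPKM in WT against 2879.6, 2613.5 and 3449.6 FPKM in KO tumours. In that sum KO 2 lay between the WT values.

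Serpina3n, an inflammation-induced serpin that inhibits granzyme B and cathepsin G, stayed in a narrow band in 4 of the 5 libraries. It was at 621 and 629 FPKM in WT against 656, 500.5 and 627 FPKM in KO tumours, with KO 2 lowest, and its log2 difference was -0.08 (SE 0.18), or 0.03 after quantile normalization. Other acute phase genes are given beside it because both are induced by inflammation in liver. Of 18 such genes tested, 0 passed, 16 were lower in KO, and in 8 all KO libraries lay below both WT libraries, as in 5.29% of all genes tested, with a median log2 difference of -0.27. In 1 of the 18 all KO values were above both WT values, and in 12 the WT libraries differed from each other by more than the genotype means did. Lcn2, the iron-siderophore binder lipocalin 2, was at 849 and 1144 FPKM in WT against 403, 669 and 432 FPKM in KO tumours (limma adjusted p = 0.893). Orm1, an orosomucoid, was at 478 and 998 FPKM in WT against 222, 373 and 405 FPKM in KO tumours, again with no overlap. Saa2, Orm2 and Saa1 had the largest log2 differences of the list (-2.53, -2.46 and -1.93), and there WT 2 stood far above all other libraries. Orm2 was at 17.7 and 103.5 FPKM in WT against 3.81, 6.35 and 13.8 FPKM in KO tumours. In WT 1, Saa1 (5.91 FPKM) and Saa2 (4.58 FPKM) lay within the KO range, against 100.1 and 128.2 FPKM in WT 2.

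The remaining Serpina3 genes were low. Serpina3g, an intracellular inhibitor of cathepsins known from lymphocytes and macrophages, was at 5.48 and 6.53 FPKM in WT against 5.60, 2.56 and 6.14 FPKM in KO tumours, with KO 2 apart from the rest. The summed level of macrophage and Kupffer cell markers, 10 of 10 listed and none at 0 throughout, was also lowest in KO 2. It was 93.3 FPKM there, 120 FPKM in WT 1, 138 FPKM in WT 2, 171 FPKM in KO 1 and 192 FPKM in KO 3. Of these macrophage and Kupffer cell markers, Clec4f, Marco and Timd4 were lowest in WT 2 and the others in KO 2. The part of these cells in the Serpina3g value was not tested, and in bulk tissue fewer cells of a type and less RNA per cell cannot be told apart. Serpina3f was at 2.27 and 1.57 FPKM in WT against 1.58, 1.11 and 1.89 FPKM in KO tumours.

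Other clade A serpins bind hormones or act on coagulation and metabolism. Serpina7, thyroxine-binding globulin, which carries thyroid hormone and inhibits no protease, lies on the X chromosome and was at 19.4 and 19.3 FPKM in WT against 25.9, 19.2 and 18.1 FPKM in KO tumours. The KO 1 library alone stood above the others. In the authors' deposited table Serpina7 has a p-value of 0.0312 and a false discovery rate of 0.99986, although 2 of its 3 KO values lie below both WT values. Serpina10, the protein Z-dependent inhibitor of clotting factor Xa, was at 62.2 and 75.6 FPKM in WT against 69.6, 75.2 and 81.4 FPKM in KO tumours. Serpina11 was at 37.2 and 29.3 FPKM in WT against 26.7, 29.0 and 31.3 FPKM in KO tumours.

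Serpina12, the adipokine vaspin, spread widely within each genotype. It was at 134 and 207 FPKM in WT against 142, 187 and 76.5 FPKM in KO tumours. KO 3 was lowest and WT 2 highest, and the log2 difference of -0.39 (SE 0.35) was -0.02 without KO 3 and -0.07 without WT 2, but -0.70 without WT 1 and -0.67 without KO 2. Adipocytes are a known source of vaspin. Of 5 adipocyte markers, Adipoq, Plin1 and Lep were at 0 in all libraries and Cfd did not exceed 0.16 FPKM. Car3 gave nearly all of the summed level of this list. It was at 14.9 and 99.45 FPKM in WT against 25.1, 12.6 and 42.9 FPKM in KO tumours. Car3 and Serpina12 were both highest in WT 2, but the other libraries did not match. KO 3, lowest in Serpina12, was above WT 1, KO 1 and KO 2 in Car3. KO 2, lowest in Car3, was above WT 1, KO 1 and KO 3 in Serpina12. The part of adipocytes in the Serpina12 values was not tested.

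The clade A genes of chromosome 12 form a cluster of 799.5 kb from base 103614786 to base 104414329, with 22 of the 62 members. Of these, 13 are expressed, and their log2 differences lay between -0.49 and 0.30. Serpina6, which encodes corticosteroid-binding globulin, sits inside this cluster between Serpina10 and Serpina16, and its log2 difference was 1.52 with an SE of 0.19 and a limma adjusted p of 0.0857. The nearest expressed members did not share that size of difference: Serpina10 was at 0.13 (SE 0.17) and Serpina1b at -0.03 (SE 0.23). Whether the members differ from Serpina6 was not tested, since that gene was left out with its result known.

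**Figure D4:**
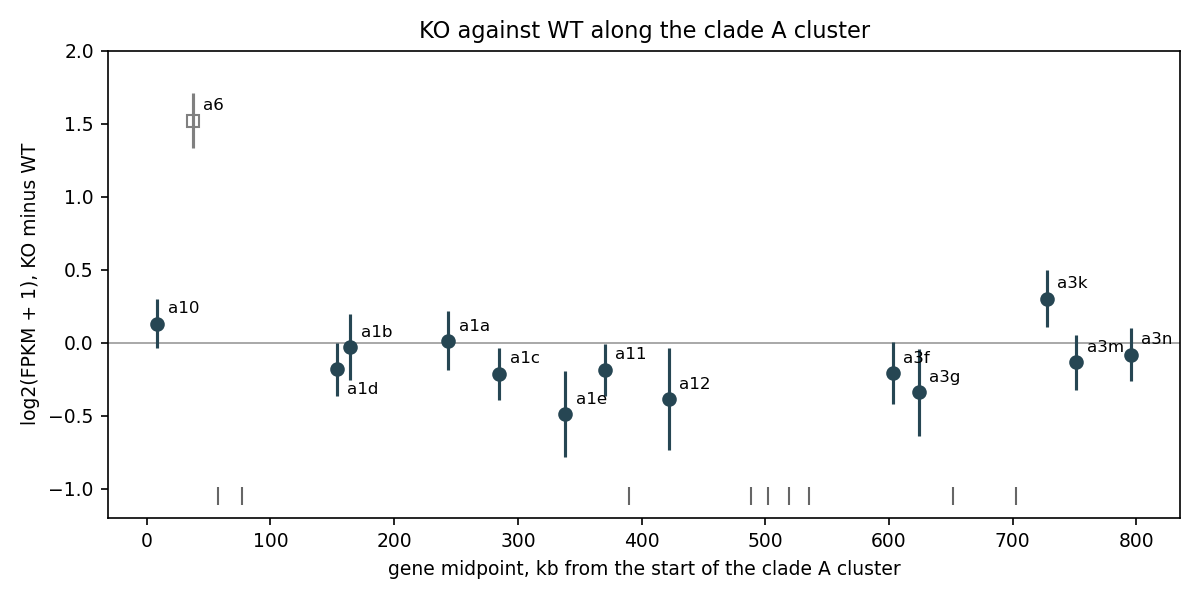
KO minus WT difference on the log2(FPKM + 1) scale, with its standard error, against the distance of each gene's midpoint from the start of the clade A cluster on chromosome 12; ticks at the bottom mark members below 1 FPKM. Filled circles are the 13 expressed members, between -0.49 and 0.30, and the open square is Serpina6, at 1.52.

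Serpins of coagulation and fibrinolysis come from clades C, D, E and F. Serpinc1, antithrombin, which blocks thrombin and factor Xa in the presence of heparin, was at 1449 and 1377 FPKM in WT against 1148, 1270 and 1370 FPKM in KO tumours. All KO values were lower, KO 3 by a small step, with a log2 difference of -0.17 (SE 0.17) that was -0.099 without KO 1. Serpind1, heparin cofactor II, a thrombin inhibitor, was at 502 and 537 FPKM in WT against 432, 439 and 449 FPKM in KO tumours. The WT mean was 519.5 FPKM ± 24.2 (SD, n = 2) and the KO mean 440.1 FPKM ± 8.33 (SD, n = 3), which is 0.847 of the former. On the log2 scale the difference was -0.24 (SE 0.15) and did not pass.

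Serpinf2, alpha-2 antiplasmin, the main plasmin inhibitor of plasma, was at 774 and 659 FPKM in WT against 773, 768 and 779 FPKM in KO tumours. WT 2 alone was lower. Serpinf1, pigment epithelium-derived factor, an anti-angiogenic protein that inhibits no protease and neighbours Serpinf2 on chromosome 11, was at 222 and 331 FPKM in WT against 237, 260.6 and 191 FPKM in KO tumours. Here WT 2 was highest. Serping1, the C1 inhibitor of complement and of the kallikrein system, was at 445 and 518 FPKM in WT against 467, 549 and 537 FPKM in KO tumours, with overlapping genotypes.

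Serpine2, protease nexin 1, a thrombin and urokinase inhibitor of tissues, was at 1.67 and 2.65 FPKM in WT against 2.62, 2.03 and 2.60 FPKM in KO tumours.

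Intracellular clade B is the largest clade, with 28 members, 16 of them on chromosome 13 and 12 on chromosome 1, and it was nearly silent in these tumours. Only 3 of the 28 were expressed and 11 were listed at 0 in all libraries. Serpinb6a (ENSMUSG00000060147, chromosome 13, 33917918 to 34002794, minus strand), a cytosolic serpin whose human counterpart inhibits cathepsin G, was at 39.1 and 43.8 FPKM in WT against 87.9, 50.9 and 58.3 FPKM in KO tumours. Every KO value was above both WT values, that of KO 1 by the most. The KO mean of 65.7 FPKM ± 19.6 (SD, n = 3) was 1.59 times the WT mean of 41.4 FPKM ± 3.29 (SD, n = 2). The log2 difference of 0.62 (SE 0.24) had an unadjusted p of 0.029 and an adjusted p of 0.999 by limma.

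The Serpinb6a difference was positive in all alternatives, and fell to 0.39 without KO 1. In the authors' deposited table Serpinb6a has a log2 fold change of 0.67, a p-value of 0.0238 and a false discovery rate of 0.99986, and 0 of the 62 serpins have a rate under 0.05 there, against 36 (0.162%) of all 22287 genes. KO 1 also held the highest sums of endothelial markers (88.3 FPKM, against 57.8 to 68.3 FPKM in the other libraries) and of stellate cell and fibroblast markers (164 FPKM, against 96.3 to 127 FPKM). Both lists were found whole, 9 of 9 and 12 of 12, with none at 0 throughout. The endothelial marker Lyve1 was at 18.1 FPKM in KO 1 against 5.06 to 7.92 FPKM in the other libraries. The endothelial markers Vwf and Emcn were highest in WT 1 and in WT 2. Dcn, at 65.7 FPKM, gave the largest part of the stellate cell and fibroblast sum in KO 1. Of that list, Acta2 and Thy1 were highest in WT 2, Pdgfra and Des in WT 1, and the others in KO 1. The part of these cells in the Serpinb6a value was not tested.

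**Figure D5:**
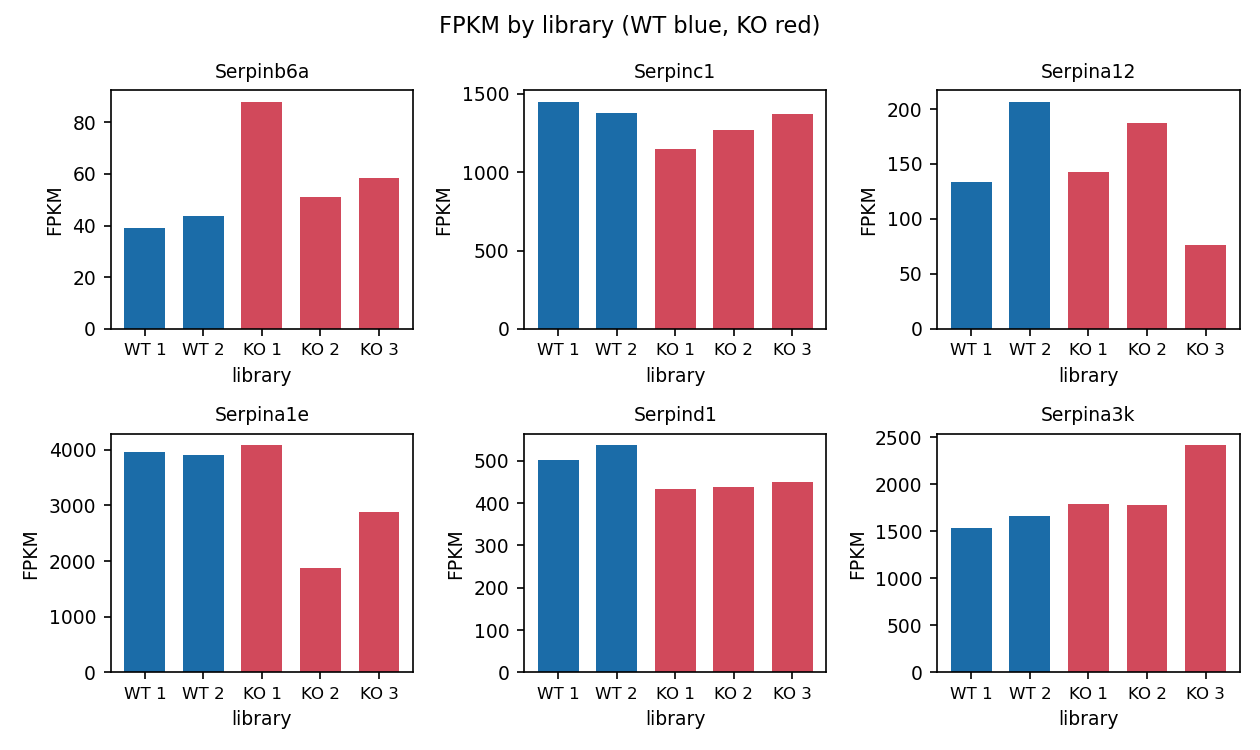
FPKM by library of 6 serpins, WT in blue and KO in red, each panel with its own scale from 0. In Serpinb6a and Serpina3k the KO bars stand above the WT bars and in Serpind1 and Serpinc1 below, while Serpina12 is lowest in KO 3 and Serpina1e in KO 2.

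Serpinb6b was at 1.26 and 3.36 FPKM in WT, the extremes of its 5 values, and at 2.70, 2.24 and 2.83 FPKM in KO tumours. Its coding sequence is 86.2% identical to that of Serpinb6a, with 0.7% of 50-base stretches shared. Serpinb9, which shields cells from granzyme B, was at 2.65 and 3.60 FPKM in WT against 2.55, 2.42 and 2.70 FPKM in KO tumours, with WT 2 highest. Gzmb, the gene of its target protease, was at 0.20 to 0.42 FPKM in all libraries, and markers of T and NK cells, 11 of 11 listed and none at 0 throughout, summed to 12.1 and 5.64 FPKM in WT against 6.38, 3.23 and 3.61 FPKM in KO tumours.

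Serpinh1, the collagen chaperone HSP47, which resides in the endoplasmic reticulum and inhibits no protease, was at 9.07 and 12.95 FPKM in WT against 14.6, 12.2 and 8.93 FPKM in KO tumours. The genotypes overlap, with KO 1 highest and KO 3 lowest. Col1a1, which encodes the alpha-1 chain of type I collagen, put the 5 libraries in the same order, at 5.40 and 9.52 FPKM in WT against 10.1, 7.36 and 5.19 FPKM in KO tumours; this gene was chosen after its values were seen, and Col1a2, Col3a1 and Col4a1 did not give that order. Of 17 tested collagen and collagen-modifying genes, 0 passed, 13 were higher and 4 lower in KO, with a median log2 difference of 0.07. Among all genes tested 6220 were higher and 3912 lower, with a median of 0.05. The genotypes overlapped in all 17, and in 13 the WT libraries differed from each other by more than the genotype means did.

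Of the 37 serpins with a mean below 1 FPKM, 14 were listed at 0 in all libraries and 23 had some value above 0. A library reached 0.5 FPKM in 3 of them. Serpinb8 was at 0.58 and 0.70 FPKM in WT against 0.56, 0.27 and 0.56 FPKM in KO tumours. Serpinb1a, an inhibitor of neutrophil elastase, was at 0.37 and 0.45 FPKM in WT against 1.11, 0.51 and 0.29 FPKM in KO tumours, with KO 1 apart. Serpinb9e was at 0.58 FPKM in WT 2 and at most 0.05 FPKM elsewhere. The other 20 did not exceed 0.39 FPKM, among them Serpini1, neuroserpin, at 0.18 to 0.36 FPKM and Serpina5, the protein C inhibitor, at 0 to 0.10 FPKM. Serpini2, a serpin of the exocrine pancreas, and Serpinb3a to Serpinb3d, relatives of squamous cell carcinoma antigen, were listed at 0 throughout.

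The proteases that serpins restrain, and their partners, were compared by lists chosen with earlier results of these data known. Of 25 tested target proteases, 0 passed, 13 were higher and 12 lower in KO (median log2 difference 0.02). F12, coagulation factor XII, a target of Serping1, was at 207 and 180 FPKM in WT against 216, 237 and 210 FPKM in KO tumours, without overlap. Prtn3, the neutrophil protease 3 that Serpina1 inhibits, was at 7.22 and 9.64 FPKM in WT against 3.08, 5.14 and 8.23 FPKM in KO tumours, with KO 3 inside the WT range. Prss8, prostasin, and St14, matriptase, had log2 differences of -0.52 and 0.34. Of 10 tested cofactors and clearance receptors, 0 passed, and 3 were higher and 7 lower.

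Protease inhibitors outside the serpin fold gave 15 higher and 9 lower genes of 24 tested, with 0 past the threshold and a median of 0.12. Among all genes tested 6220 were higher and 3912 lower, with a median of 0.05. In 17 of the 24 the WT libraries differed from each other by more than the genotype means did. Pzp, an alpha-2-macroglobulin that traps proteases in a cage, was at 2905 and 2858 FPKM in WT against 3921, 3821 and 3403 FPKM in KO tumours, all KO values being higher. Cstb, Timp1 and Itih4 had log2 differences of -0.47, -0.53 and -0.41 with overlapping values. Among 16 genes of endoplasmic reticulum quality control, which folds secreted serpins, 9 were higher and 7 lower and 0 passed. Xbp1, a transcription factor of the unfolded protein response, was at 194 and 184 FPKM in WT against 242, 286 and 256 FPKM in KO tumours, and Pdia3, a disulfide isomerase, at 176 and 173 FPKM in WT against 228, 202 and 193 FPKM in KO tumours.

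Of 22 regulators of hepatic serpin genes, 1 passed, Onecut1 (limma adjusted p = 0.047), with 13 higher and 9 lower in KO. Among all 10132 genes tested, 6220 were higher and 3912 lower, and Onecut1 alone passed. The list was chosen with earlier results of these data known, so this count is no test of the regulators as a group. The Onecut1 difference of 1.87 stayed between 1.14 and 2.21 over the 15 alternatives, but its limma adjusted p ran from 6.07e-05 to 0.516 and missed the threshold in 10 of them. Foxa1, Foxa2 and Cebpa, hepatocyte transcription factors, had log2 differences of 0.82, 0.87 and 0.63 and KO values all above WT, but did not pass. They are named for the smallest unadjusted limma p of the list after Onecut1. KO values were all above WT in 4 of the 22, and in 9.78% of all genes tested, and all below in 0 of the 22. In 14 of the 22 the WT libraries differed from each other by more than the genotype means did, against 74.5% of all genes tested. Agt, angiotensinogen, a serpin by fold whose symbol is outside the rule, was at 286 and 203 FPKM in WT against 226, 234 and 218 FPKM in KO tumours. Of its pathway, 4 genes were tested and all 4 were lower in KO without passing. The genotypes overlapped in all 4, and in all 4 the WT libraries differed from each other by more than the genotype means did.

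Library sums of FPKM ran from 526229 to 552619 and depth is unknown, since FPKM keeps no totals. Hepatocyte genes were abundant, as in liver tissue: 8 of 9 listed were matched, with summed levels of 136782 and 103959 FPKM in WT against 119503 to 119815 FPKM in KO tumours. Of 10 pancreatic acinar markers, 3 were at 0 throughout, and Cela1 gave 14.4 to 26.9 FPKM of a sum of 14.6 to 26.9 FPKM.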

How the data were processed

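The authors deposited FPKM per gene and library, a unit taken from the file headers, rounded to 2 decimals; 5 libraries were used and their depth is unknown. Tools named without a role in the submitters' processing notes are HISAT2, StringTie, bcl2fastq 2.0, DESeq2 and limma, with the build mm10; the sources used here do not give the annotation, the strand setting or the handling of fragments with several matches. For each gene the deposited table also holds a log2 fold change with its p-value and false discovery rate, from a test of the authors that is not stated.

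Genotypes and replicate numbers came from the sample titles. All 10132 genes with a mean of at least 1 FPKM were fitted on the log2(FPKM + 1) scale by limma 3.58.1 in R 4.3.3 (empirical Bayes with a mean-variance trend, no covariate, two-sided, 3 residual degrees of freedom, Benjamini-Hochberg over all genes). The fit was also run on simulated data. That outcome is not given here and does not vouch for the fit on these libraries. Differences are KO minus WT on that scale, which understates changes of low genes. Of the 25 serpins from 1 FPKM, 24 are named and 1 is counted but not reported here; also named are those with a library at 0.5 FPKM or more. Up to 4 genes per list, by the smallest unadjusted p, are eligible for naming. Gzmb, Col1a1, Col1a2, Col4a1, Saa1, Saa2 and individual markers of cell types were named after their values were seen. Serpins and lists were chosen with earlier results of these data known. Coding sequences and coordinates are from GENCODE vM21, promoters from RefSeq GRCm38.p6 (54 of 62 serpins matched). Alternatives changed the pseudocount (0.1, 5), filter (none, 5 FPKM), scaling, empirical Bayes, replicate block and libraries. Figures used matplotlib 3.10.9.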

Additional observations from a re-analysis of the deposited data

How the results depend on the processing

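No serpin passed under any of the 15 alternatives, with a smallest limma adjusted p of 0.423, reached without WT 2. The median log2 difference of the serpins tested stayed between -0.20 and -0.02, while that of all genes tested was 0.05, -0.066 without WT 1 and 0.164 without WT 2. Of 356 recomputed differences of the 24 named serpins, 339 kept their direction, and 12 of the 24 did so in every alternative, among them Serpinb6a (0.39 to 0.78). With 1 library left out, the difference in summed serpin FPKM (KO minus WT, -2552 with all libraries) ran from -6857 without WT 2 to 1752 without WT 1. The log2 differences of single serpins then ran from -0.20 to 0.22 (Serpina1a), -0.31 to 0.25 (Serpina1b), -0.30 to 0.0328 (Serpina3m), -0.16 to 0.038 (Serpina3n), -0.0478 to 0.20 (Serpina7), -0.0073 to 0.27 (Serpina10), -0.28 to 0.66 (Serpinb6b), -0.10 to 0.35 (Serpine2), -0.54 to 0.0341 (Serpinf1), -0.0013 to 0.23 (Serpinf2), -0.0047 to 0.21 (Serping1) and -0.14 to 0.33 (Serpinh1). Where leaving out a WT library leaves 1, that library is assumed to vary like the KO libraries. Median-ratio rescaling turned Serpina1a to -0.0481 and quantile normalization turned Serpina3n to 0.0263; the cause was not tested. With the replicate block, in which KO 3 has no partner and drops out of the difference, 0 serpins passed, while calls over all genes went from 1 to 62. These calls were 17 without WT 1, 3 with robust empirical Bayes, 1 in 3 alternatives (pseudocount 0.1, no trend, without WT 2) and 0 in the other 9. The numbers are not said to mark shared animals or days, and deviations of same-numbered libraries correlated across genes at 0.088 and -0.241.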
